A study of Mus musculus with 12 samples.

Results

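Olig1, Nod1, Ubd, Abhd16a, Wdr46 and Enpp5 are 6 of the 30854 genes in an array data set of mouse pluripotent stem cells. They were chosen because their signals had been seen to stand above background in cells that had lost Lin28a alone or Lin28b alone, and at or near background in cells that had lost both genes or neither. The file carries Abhd16a under its older name, Bat5. Each gene had 1 entry in the table and all 6 passed the filter on dim genes, which left 9920 genes for testing. Because the signals themselves chose the genes, their differences between the single-loss groups and the other groups are given below as a description, with no test.

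The study measured 12 samples, 3 in each of 4 groups, with 1 Illumina Mouse WG-6 BeadChip array per sample. The groups were Lin28a loss of function (Lin28a lost, Lin28b intact), Lin28b loss of function (Lin28b lost, Lin28a intact), loss of function of both, called double loss, and wild type. The labels name the tissue embryonic stem cells, while the design text calls the controls iPS cells. All were grown in knockout DMEM with serum and Lif, and no age, strain, allele or method of gene disruption was given in the sources used here. Sample titles give each genotype 1 line name, so line and genotype cannot be told apart, and whether replicates were separate cultures was not stated. The Lin28a-loss and wild-type samples were run on 1 BeadChip (chip 1) and the remaining 6 samples on another (chip 2).

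Lin28a and Lin28b are paralogous RNA-binding proteins of early embryonic and stem cells, known for blocking the maturation of the let-7 family of microRNAs. The 6 genes belong to no common pathway. Olig1 encodes a transcription factor of the oligodendrocyte lineage. Nod1 is a cytosolic sensor of fragments of bacterial cell wall that signals through the kinase Ripk2 to NF-kappa-B. Ubd encodes FAT10, a ubiquitin-like protein that marks others for the proteasome and is induced by interferon gamma. Abhd16a is a membrane lipase that releases lysophosphatidylserine from phosphatidylserine. Wdr46 is a nucleolar protein whose yeast counterpart works in the small-subunit processome, which assembles the small ribosomal subunit. Enpp5 is a membrane glycoprotein of the ectonucleotide pyrophosphatase and phosphodiesterase family.

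Lin28a, the gene named in the Lin28a-loss and double-loss labels, showed normalized log2 intensities of 5.66 ± 0.08 (SD, n = 3 here and throughout) in Lin28a loss, 7.03 ± 0.17 in Lin28b loss, 5.48 ± 0.17 in double loss and 7.97 ± 0.10 in wild type. Lin28a was lower in Lin28a loss and double loss but above background on all 12 arrays, those of these groups included. Lin28b was above background on no array, wild type included, so its loss could not be checked. All 14 pluripotency markers were above background on all 12 arrays, and none of 10 fibroblast markers was on any array. Of 10 immune markers 4 were above background on every array, but Ptprc, Cd74 and Csf1r, which define blood cell types, were on none. Mean raw signal per array lay between 325.4 and 596.7. The 3 brightest arrays were Lin28a loss replicate 3, double loss replicate 1 and wild type replicate 1, and values without them are given where they bear on a result. Eif2s3y, a Y-linked gene, passed the detection threshold on every Lin28b-loss and double-loss array and on no array of Lin28a loss or wild type. The groups thus differ in a gene other than Lin28a or Lin28b, along the same division as the chips. Ddx3y, Kdm5d and Uty, which are Y-linked too, were above background on no array.

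The file places Abhd16a, Wdr46 and Ubd in band 17qB1 and Enpp5 in band 17qB3 of chromosome 17, Nod1 in band 6qB3 of chromosome 6 and Olig1 in band 16qC3.3 of chromosome 16. Of the 6 genes, 4 have an entry in the RefSeq promoter table (GRCm38.p6). Their 250 bases before the annotated start are shown because these genes moved together on the arrays, so that what their starts do and do not share can be seen. Letters in capitals are matches on either strand to 6 motifs: the TATA box TATAAA, the CCAAT box CCAAT, the octamer ATGCAAAT, the E-box CACGTG, the interferon-stimulated response element (GAAA, any 2 bases, GAAA) and the cyclic AMP response element TGACGTCA. No motif contains another, and no matches overlapped.
Nod1, chr6:54972613-54972862, strand minus: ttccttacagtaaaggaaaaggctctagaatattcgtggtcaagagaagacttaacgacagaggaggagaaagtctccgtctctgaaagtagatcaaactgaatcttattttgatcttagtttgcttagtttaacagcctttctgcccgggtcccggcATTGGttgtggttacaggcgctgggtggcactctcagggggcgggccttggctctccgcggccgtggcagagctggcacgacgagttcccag
Ubd, chr17:37193642-37193891, strand plus: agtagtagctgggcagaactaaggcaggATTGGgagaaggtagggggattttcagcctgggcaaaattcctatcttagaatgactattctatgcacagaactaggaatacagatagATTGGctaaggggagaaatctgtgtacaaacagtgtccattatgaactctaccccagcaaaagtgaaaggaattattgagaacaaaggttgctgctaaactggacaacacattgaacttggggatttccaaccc
Abhd16a, chr17:35089041-35089290, strand plus: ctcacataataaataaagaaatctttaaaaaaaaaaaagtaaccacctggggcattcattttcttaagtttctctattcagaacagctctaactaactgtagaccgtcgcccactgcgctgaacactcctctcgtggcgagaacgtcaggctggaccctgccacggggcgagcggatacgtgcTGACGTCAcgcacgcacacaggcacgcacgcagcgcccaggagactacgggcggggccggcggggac
Wdr46, chr17:33940473-33940722, strand plus: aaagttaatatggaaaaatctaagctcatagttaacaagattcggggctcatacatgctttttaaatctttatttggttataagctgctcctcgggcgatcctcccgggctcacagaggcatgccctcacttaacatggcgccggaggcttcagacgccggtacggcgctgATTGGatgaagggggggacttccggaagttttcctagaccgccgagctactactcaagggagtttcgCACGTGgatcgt
The Nod1 stretch is the first of 2 starts in the table, and the second held no match. None of the motifs was found in all 4 stretches. The CCAAT box was found once in Nod1, once in Wdr46 and 2 times in Ubd, while 33.8% of 32851 promoters in the table hold it. Wdr46 also holds an E-box (6.02% of promoters) and Abhd16a a cyclic AMP response element (1.55%). The interferon-stimulated response element, which 2.98% of promoters hold, was not in the 250 bases of Ubd, nor in the others. Base composition differed widely: the stretch of Ubd has 0 CpG dinucleotides, against 12 in Nod1, 16 in Wdr46 and 20 in Abhd16a and a median of 6 over the table.

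Values of the 6 genes by array are raw signals first, that is mean bead intensities without background subtraction, and then normalized log2 intensities. A signal counts as above background where its detection p, its rank among the negative control beads of the same array, is under 0.01. Where no array of a group was above background, a fold is given as a lower bound, against the higher of the gene's own value and the lowest single-probe gene above background on each array. All 36 signals of the 6 genes in single-loss arrays were above background, and 4 of 36 in double-loss and wild-type arrays, all 4 of them for Nod1. Signals were read from 24 to 57 beads each, with a bead standard error of at most 7.19% of the signal.

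**Figure D1:**
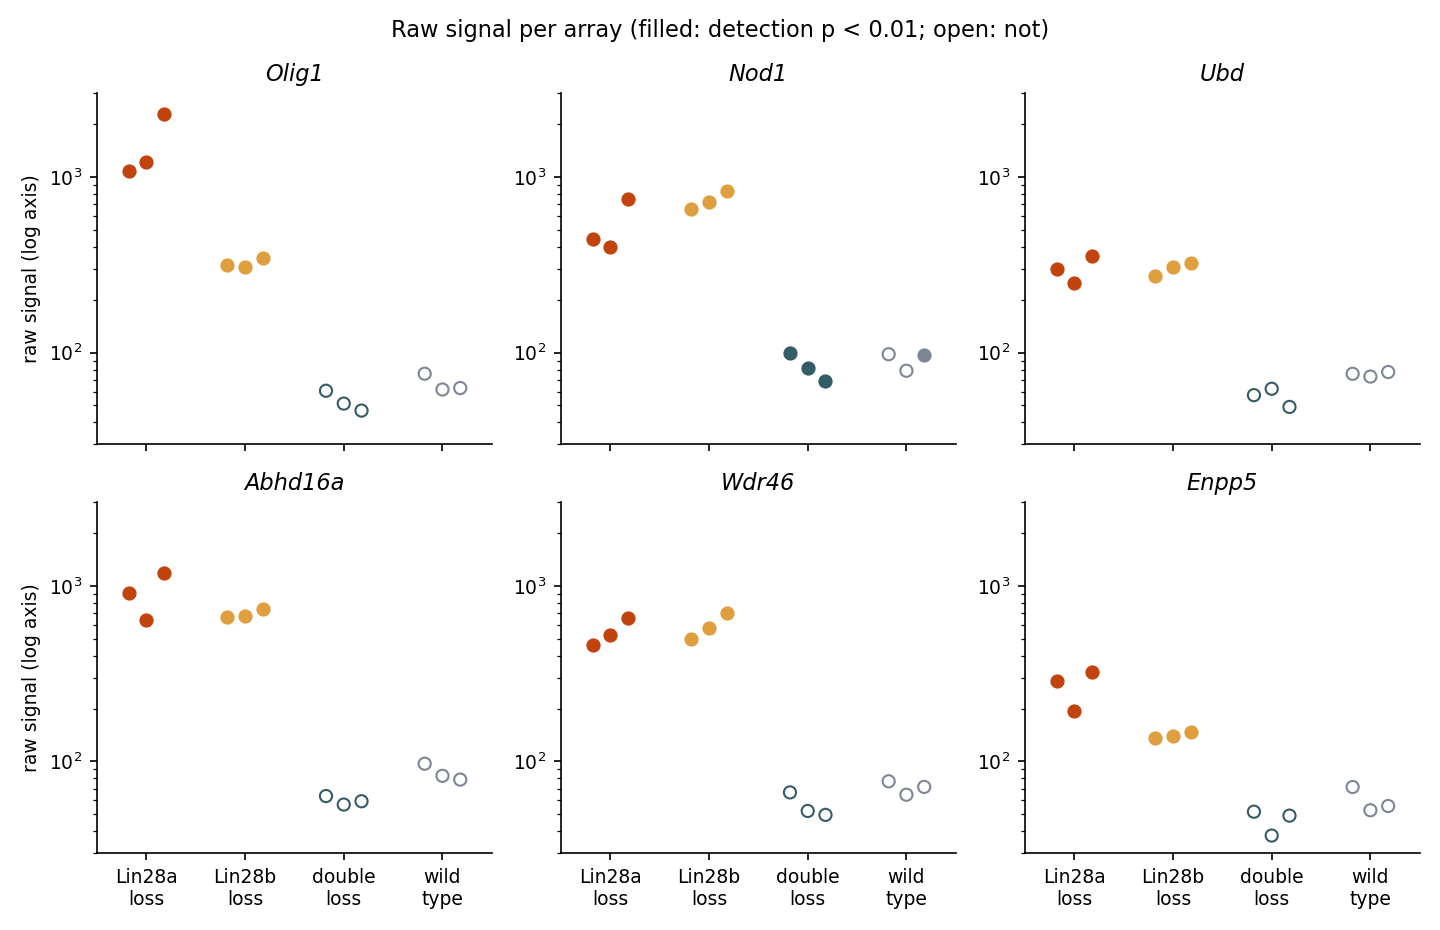
Raw signal (log axis) of each of the 6 genes on each array, by group; filled points have a detection p under 0.01 and open points do not. All 36 points of Lin28a loss and Lin28b loss are filled and lie between 136.2 and 2284, while the 36 points of double loss and wild type lie between 37.8 and 100.1, with filled points for Nod1 alone.

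Olig1 was the transcription factor of the group. It had raw signals of 1078.9, 1217.5 and 2284 in Lin28a loss and 315.1, 308.8 and 345.7 in Lin28b loss, against 60.6, 51.2 and 46.7 in double loss and 75.8, 61.6 and 62.8 in wild type. Every single-loss array was thus far above every other array, and the Lin28a-loss arrays were all above the Lin28b-loss arrays. Normalized log2 intensity was 10.32 ± 0.33 in Lin28a loss, 8.44 ± 0.05 in Lin28b loss, 4.81 ± 0.10 in double loss and 4.77 ± 0.04 in wild type. Lin28a loss was at least 25.2-fold above wild type, and Lin28b loss at least 7.01-fold above double loss. Within Lin28a loss, the brightest array of the group carried the highest value, and the difference from wild type was 5.27 on the log2 scale without the 3 brightest arrays against 5.55 with them.

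Nod1, the bacterial sensor, had raw signals of 445.6, 401.9 and 747.5 in Lin28a loss and 655.4, 722.2 and 834.3 in Lin28b loss. In double loss it had 100.1, 81.2 and 68.6, and in wild type 97.9, 78.8 and 97.5. The groups with 1 loss did not overlap with the others, but Nod1 was not off in the others: all 3 double-loss arrays (detection p 0.00107 to 0.00641) and 1 wild-type array (0.00855) were above background. The pattern on only in single loss thus does not hold for Nod1, which was high there and low, not absent, in double loss. Its normalized log2 intensities of 8.72 ± 0.18 in Lin28a loss, 9.73 ± 0.08 in Lin28b loss, 5.98 ± 0.05 in double loss and 5.49 ± 0.27 in wild type gave a 9.34-fold difference of Lin28a loss from wild type and a 13.5-fold difference of Lin28b loss from double loss. The double-loss arrays were all above the wild-type arrays after normalization but overlapped with them in raw signal, and the 2 groups lie on different chips.

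Ubd, the ubiquitin-like modifier, had raw signals of 300.6, 250.5 and 355.7 in Lin28a loss and 272.8, 308.9 and 323.3 in Lin28b loss, against 57.2, 62.2 and 49 in double loss and 75.7, 73 and 77.5 in wild type. Single-loss arrays were again all above the others. Normalized log2 intensity was 7.84 ± 0.10 in Lin28a loss, 8.33 ± 0.07 in Lin28b loss, 4.99 ± 0.26 in double loss and 5.07 ± 0.24 in wild type, which is at least 4.53-fold for Lin28a loss over wild type and at least 6.47-fold for Lin28b loss over double loss.

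Abhd16a, the phosphatidylserine lipase, had raw signals of 909.2, 643.5 and 1182.5 in Lin28a loss and 668.4, 675.6 and 742.9 in Lin28b loss. Double loss had 63.5, 56.8 and 59.3 and wild type 97.1, 82.8 and 78.8, so no array of double loss or wild type came near a single-loss array. In normalized log2 intensity these were 9.59 ± 0.15 in Lin28a loss, 9.64 ± 0.04 in Lin28b loss, 5.18 ± 0.29 in double loss and 5.36 ± 0.22 in wild type. Lin28a loss was at least 15.2-fold above wild type and Lin28b loss at least 16.1-fold above double loss.

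Wdr46, the nucleolar protein, is the only one of the 6 genes read by 2 probes, which the table averages. Its raw signals were 464, 527.7 and 659.5 in Lin28a loss and 499.8, 577.1 and 702 in Lin28b loss, against 66.6, 52.2 and 49.6 in double loss and 77.1, 64.6 and 71.6 in wild type. The gap between the groups was wide on every array. Normalized log2 intensity was 8.82 ± 0.26 in Lin28a loss, 9.38 ± 0.14 in Lin28b loss, 4.94 ± 0.16 in double loss and 4.91 ± 0.09 in wild type, at least 8.92-fold for Lin28a loss over wild type and at least 13.4-fold for Lin28b loss over double loss.

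Enpp5, the ectoenzyme relative, had raw signals of 288.2, 193.3 and 323.7 in Lin28a loss and 136.2, 139.6 and 147.2 in Lin28b loss. It had 51.7, 37.8 and 49.1 in double loss and 71.5, 52.7 and 55.7 in wild type. The single-loss arrays lay above the rest here too, with the Lin28b-loss arrays nearer to background than those of Lin28a loss. Normalized log2 intensity was 7.61 ± 0.22 in Lin28a loss, 7.03 ± 0.04 in Lin28b loss, 4.64 ± 0.23 in double loss and 4.61 ± 0.09 in wild type, at least 3.84-fold for Lin28a loss over wild type and at least 2.63-fold for Lin28b loss over double loss.

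For all 6 genes, every single-loss array was above every double-loss and wild-type array, which was so for 317 of the 9920 genes tested (3.2%). In normalized log2 intensity, values of double loss and wild type overlapped for each gene except Nod1. In raw signal, the double-loss arrays of Olig1, Ubd, Abhd16a and Enpp5 were all below the wild-type arrays, those of Wdr46 and Nod1 overlapped with them, and the 2 groups lie on different chips. Nearest to the detection threshold on single-loss arrays were the values of Enpp5 in Lin28b loss, with a detection p of 0.00107 on 2 arrays. Apart from the Nod1 values given above, the nearest on the other arrays were those of Wdr46 on 1 double-loss array (0.01371) and Abhd16a on 1 wild-type array (0.01709). Across the 12 arrays, Pearson's r between pairs of the 6 genes lay between 0.879 and 0.992 over 15 pairs. These points share the 4 groups on which the genes were chosen, so r describes that choice.

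**Figure D2:**
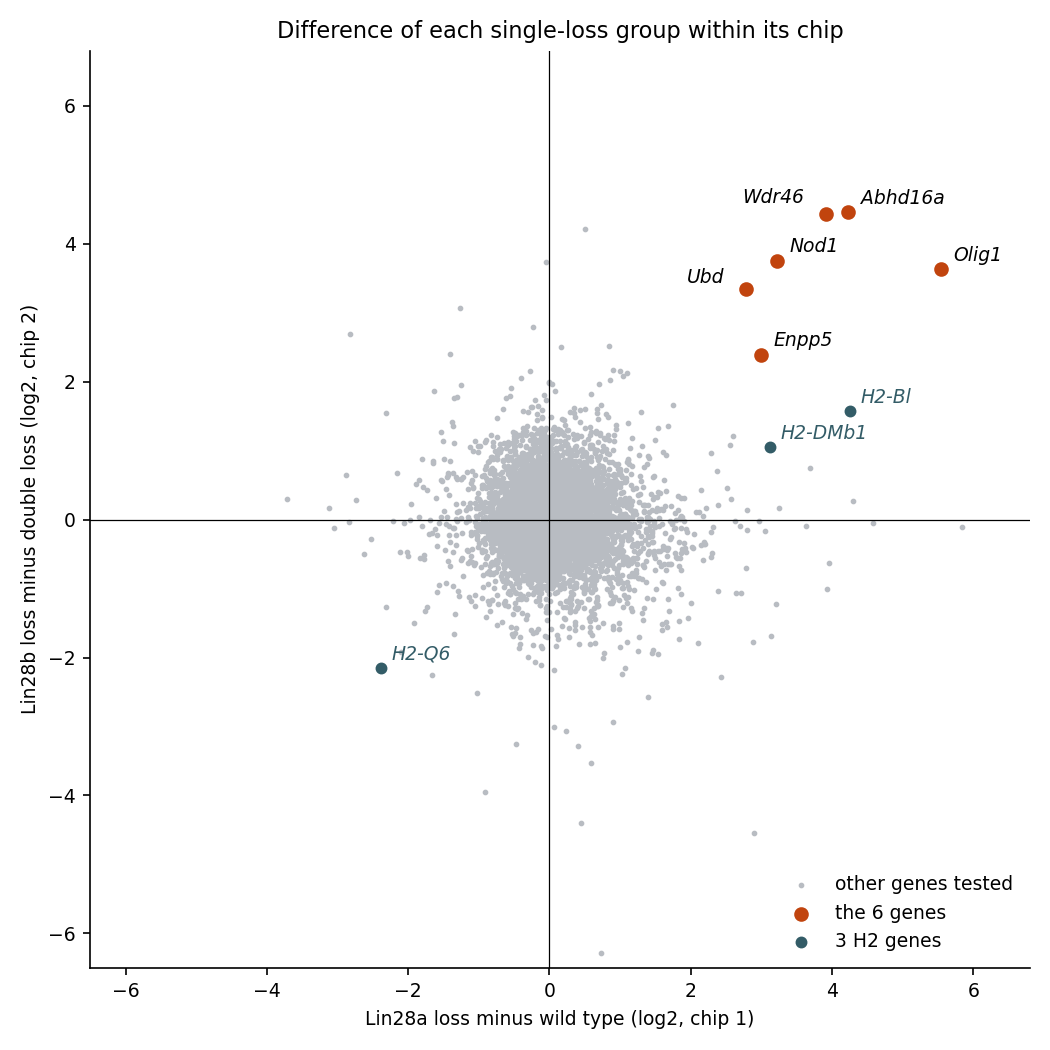
Log2 difference of Lin28a loss from wild type (horizontal axis, chip 1) and of Lin28b loss from double loss (vertical axis, chip 2) for the 9920 genes tested; grey points are other genes, red points the 6 genes and dark blue points 3 H2 genes. The 6 genes lie between 2.78 and 5.55 on the horizontal axis and between 2.39 and 4.46 on the vertical axis, with signals at background taken as measured.

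The choice of the genes did not use which single-loss group was higher, so Lin28a loss was compared with Lin28b loss by test. Olig1 was 3.67-fold higher in Lin28a loss (log2 difference 1.88 ± 0.13 SE, limma, adjusted p = 2.17e-07), and Enpp5 was 1.49-fold higher (0.58 ± 0.13, adjusted p = 0.0024). Lower in Lin28a loss than in Lin28b loss were Nod1 (-1.02 ± 0.13, adjusted p = 3.27e-05), Wdr46 (-0.56 ± 0.13, adjusted p = 0.0035) and Ubd (-0.48 ± 0.14, adjusted p = 0.012). Abhd16a differed by -0.05 ± 0.15 (adjusted p = 0.78), and its arrays overlapped, while those of the other 5 genes did not. Arrays of these groups did not overlap for 63.4% of all genes tested, and 5306 of 9920 (53.5%) passed this test, against 5 of the 6 genes. Lin28a loss and Lin28b loss lie on different chips, and chip, line and genotype cannot be told apart here. Of the 5306 genes 2519 were higher in Lin28a loss, against 2562 of 3228 under median scaling, which moved the median of all genes in this comparison to 0.24. Under that scaling the differences of Wdr46 (-0.29, adjusted p = 0.22) and Ubd (-0.20, adjusted p = 0.38) did not pass. That of Ubd did not pass under cyclic loess either (-0.45, adjusted p = 0.11).

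Over the whole table, 11 genes (0.0357%) were above background on all 6 single-loss arrays and on no other array. They were Olig1, Ubd, Abhd16a, Wdr46 and Enpp5 and a further 6, namely Cyp7b1, Mmp23, H2-Bl, H2-T10, 1700067K01Rik and 9930004G02Rik. The count was 18 without Lin28b-loss replicate 2, 24 without wild-type replicate 1 and 47 without the 3 brightest arrays. These genes were picked by the pattern and are described without a test. Cyp7b1, an oxysterol hydroxylase, showed normalized log2 intensities of 6.07 ± 0.15 in Lin28a loss and 6.12 ± 0.06 in Lin28b loss, against 5.08 ± 0.09 in double loss and 4.93 ± 0.02 in wild type. Mmp23, a metalloproteinase, 1700067K01Rik and 9930004G02Rik were at least 1.28-, 1.45- and 1.26-fold higher, in that order, in the mean of the single-loss groups than in that of the others. H2-T10, read by 3 probes, had intensities that did not follow its detection calls, at 5.45 ± 0.11 in Lin28a loss and 6.65 ± 0.10 in Lin28b loss, against 6.06 ± 0.18 in double loss and 6.18 ± 0.05 in wild type. Of the 10 genes with a known chromosome 6 were on chromosome 17 (60%). There lie 4.67% of all placed genes of the table and 5.51% of placed genes tested. Among them are Abhd16a, Wdr46, Ubd and Enpp5, which were chosen by their signals, so the share describes that choice. The others were H2-Bl and H2-T10. The reverse pattern, above background on all double-loss and wild-type arrays and on no other, was met by 1 gene, the dimmer of the entries for H2-Q6, also on chromosome 17.

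The genes that lie nearest to the 6 on their chromosomes were not among the chosen genes, and they were tested. The neighbour windows were set with earlier results of these data known, which limits these tests. The difference tested, called the single-loss difference, is the mean of Lin28a loss and Lin28b loss minus the mean of double loss and wild type; each chip holds a group of either side, so an additive chip effect cancels. Over all genes 3750 of 9920 passed an adjusted p under 0.05 (37.8%), and 153 of those changed at least 2-fold (1.54%). The 15 nearest tested genes on each side of each of the 6, in the RefSeq order, made 153 neighbours. Of these 32 rose and 33 fell, which is 42.5%, and 14 changed at least 2-fold (9.15%), where 133 of 9761 other genes did (1.36%). Of the 14, H2-Bl and Tmem63b are also among the genes picked by their pattern, and several others were above background in 1 or a pair of groups only, so the count is a description. All 7 H2 genes that changed at least 2-fold are among the 14. Without the 3 brightest arrays 44 rose and 47 fell, and 13 changed at least 2-fold. With only the 5 nearest tested genes on each side, 1 of 53 changed at least 2-fold (1.89%), which is close to the share over all genes. The median absolute difference of the neighbours was 0.19 on the log2 scale, beside 0.18 for all genes.

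Neighbours of the chromosome 17 genes made up 11 of the 14 changes of at least 2-fold, among 93 neighbours there, and neighbours of Nod1 and Olig1 the other 3, among 60. H2-DMb1, a chaperone chain of class II antigen presentation that lies 12 tested genes from Wdr46, read, in normalized log2 intensity, 7.71, 7.84 and 7.53 in Lin28a loss and 5.78, 5.62 and 5.60 in Lin28b loss, against 4.54, 4.61 and 4.71 in double loss and 4.56, 4.63 and 4.53 in wild type. It was above background on all Lin28a-loss arrays, on 1 Lin28b-loss array and on no other, and rose at least 2.05-fold (limma, adjusted p = 5.51e-10). Next to it Psmb9, an interferon-induced subunit of the immunoproteasome, read 7.02, 7.13 and 7.09 in Lin28a loss and 5.41, 5.18 and 5.43 in Lin28b loss, against 4.71, 4.60 and 4.60 in double loss and 5.01, 4.51 and 4.60 in wild type. Only in Lin28a loss was Psmb9 above background, and its single-loss difference was at least 1.63-fold (adjusted p = 6.56e-08). Myo1f, a myosin of immune cells, rose at least 1.75-fold (adjusted p = 4.09e-09), with 7.18 ± 0.21 in Lin28a loss and 5.73 ± 0.14 in Lin28b loss, against 4.52 ± 0.08 in double loss and 4.58 ± 0.06 in wild type. H2-Ab1, a class II chain, rose by 1.06 ± 0.14 (SE, log2, adjusted p = 7.77e-05). H2-DMb1, Psmb9 and Myo1f passed the filter on dim genes only through Lin28a loss, and H2-Ab1 only through the single-loss groups. All were high there, so their p-values are a description.

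H2-Bl, a class I gene that lies 14 tested genes from Ubd, had 9.03 ± 0.14 in Lin28a loss and 6.49 ± 0.18 in Lin28b loss, against 4.92 ± 0.29 in double loss and 4.77 ± 0.16 in wild type, and is given without a test since it met the pattern itself. Most of the other class I genes of the region that changed at least 2-fold stood the other way. H2-Q6, which lies 11 tested genes from Abhd16a, read 5.07, 4.97 and 4.87 in Lin28a loss and 5.73, 5.79 and 5.55 in Lin28b loss, against 7.68, 7.94 and 7.90 in double loss and 7.27, 7.54 and 7.26 in wild type. All 6 single-loss values were below the 6 others, and the fall was at least 4.11-fold (limma, adjusted p = 7.00e-10). Beside it H2-Q5 had 4.47 ± 0.02 in Lin28a loss and 4.59 ± 0.03 in Lin28b loss, both at background, against 6.08 ± 0.13 in double loss and 6.38 ± 0.08 in wild type, at least 1.63-fold lower (adjusted p = 8.03e-10). H2-Q6 passed the filter on dim genes only through double loss and wild type, and H2-Q5 only through wild type. Both were high there, so their p-values are a description. H2-K1, 3 tested genes from Wdr46, fell by 1.07 ± 0.09 (SE, log2; adjusted p = 3.30e-06). H2-D1 rose by 1.04 ± 0.09 (adjusted p = 2.63e-06); it and Gadd45a below are named after their values were seen.

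**Figure D3:**
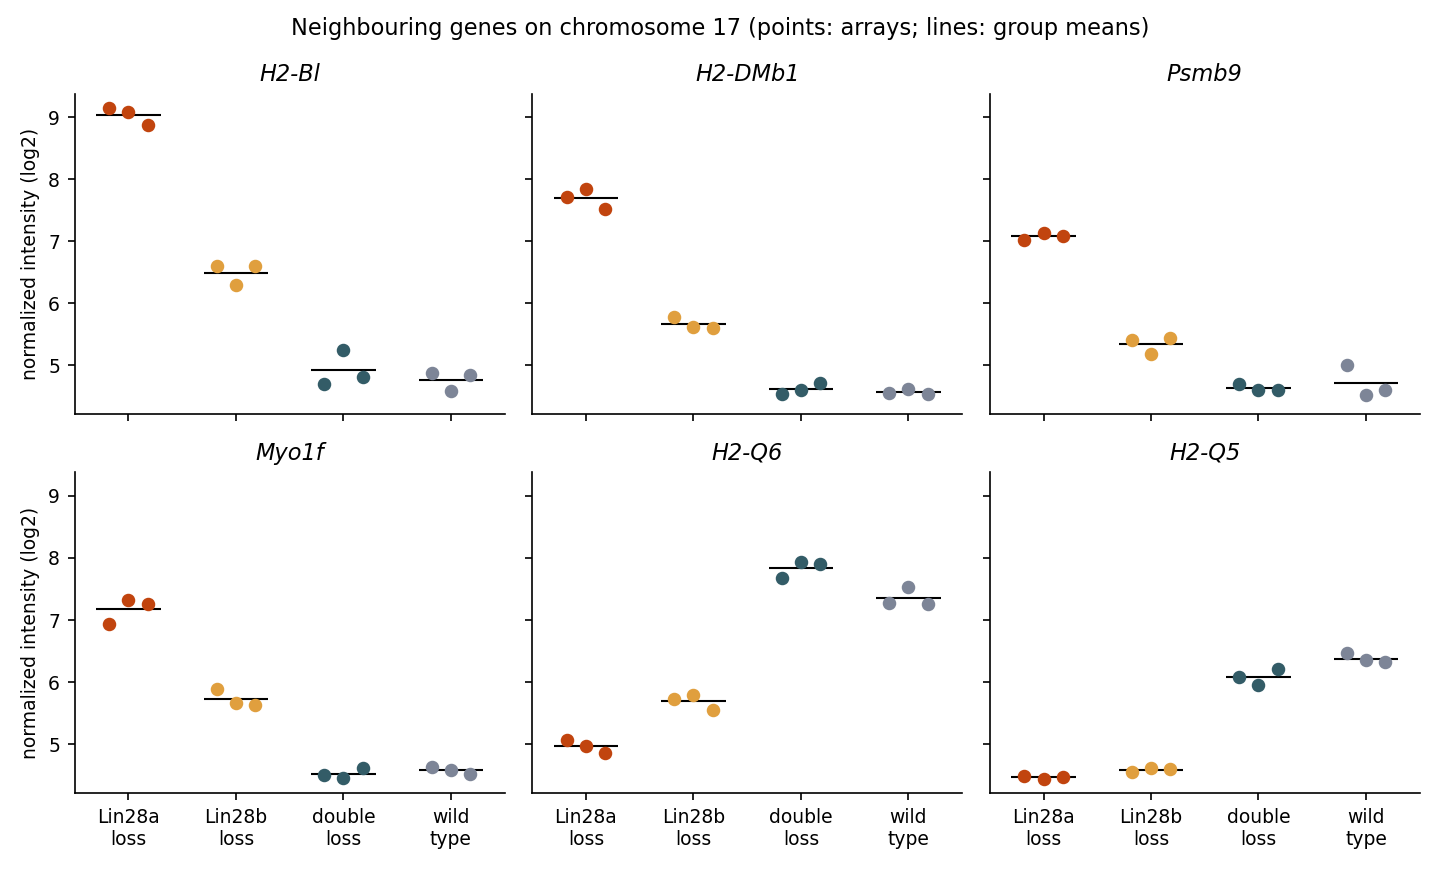
Normalized log2 intensity of 6 neighbouring genes on chromosome 17 on each array, by group; points are arrays and lines are group means. H2-Bl, H2-DMb1, Psmb9 and Myo1f stand highest in Lin28a loss and next in Lin28b loss, while H2-Q6 and H2-Q5 stand lower in both single-loss groups than in double loss and wild type.

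Away from the H2 genes, Tmem63b, an ion channel gene 9 tested genes from Enpp5, had 8.96 ± 0.12 in Lin28a loss and 8.54 ± 0.07 in Lin28b loss, against 7.19 ± 0.16 in double loss and 7.28 ± 0.16 in wild type. The nearby 1600014C23Rik rose by 1.16 ± 0.15 (SE, log2; limma, adjusted p = 7.96e-05). The carbonyl reductase gene Cbr3, which lies 15 tested genes from Olig1, fell by 1.36 ± 0.11 (adjusted p = 1.66e-06). Npy, which encodes a neuropeptide and lies 15 tested genes from Nod1, was above background in double loss alone. It was at least 1.61-fold lower in the single-loss difference (adjusted p = 1.06e-06). In Lin28a loss and wild type Npy read 4.65 and 4.95. Npy passed the filter on dim genes through double loss alone, so its p-value is a description. Gadd45a, a growth arrest gene 13 tested genes from Nod1, fell by 1.02 ± 0.09 (adjusted p = 2.02e-06).

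Of all 18 tested H2 genes, which encode the histocompatibility antigens and neighbours named with them, 9 rose and 5 fell in the single-loss difference, and 7 changed at least 2-fold (38.9%, 4 up and 3 down), beside 37.8% called and 1.54% at 2-fold over all genes. Within chip 1, 10 were higher and 5 lower in Lin28a loss than in wild type (36.7% of all genes passed), and within chip 2, 6 were higher and 5 lower in Lin28b loss than in double loss (36.6% of all genes passed). The chips did not always run the same way: H2-DMa, H2-Eb1 and H2-Oa, named after their values were seen, differed by 1.37, 1.92 and 1.93 on the log2 scale within chip 1 and by -0.60, -0.41 and -0.14 within chip 2. The count of 7 was also reached under median scaling, under cyclic loess and without the 3 brightest arrays. It is a description, since it takes in H2-Bl, which met the pattern itself. It also takes in genes kept for testing only through groups in which they were high. H2 genes resemble each other in sequence, and which of them a probe reads is not given in the sources used here. Between Wdr46 and Enpp5, 8 of 88 tested genes changed at least 2-fold (9.09%), against 6 of 370 on the rest of chromosome 17 (1.62%). The 8 are Psmb9 and the 7 H2 genes counted above, so this is no separate result about the region. The strain of each line is not given in the sources used here, so that line and Lin28 genotype cannot be told apart for these genes either.

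**Figure D4:**
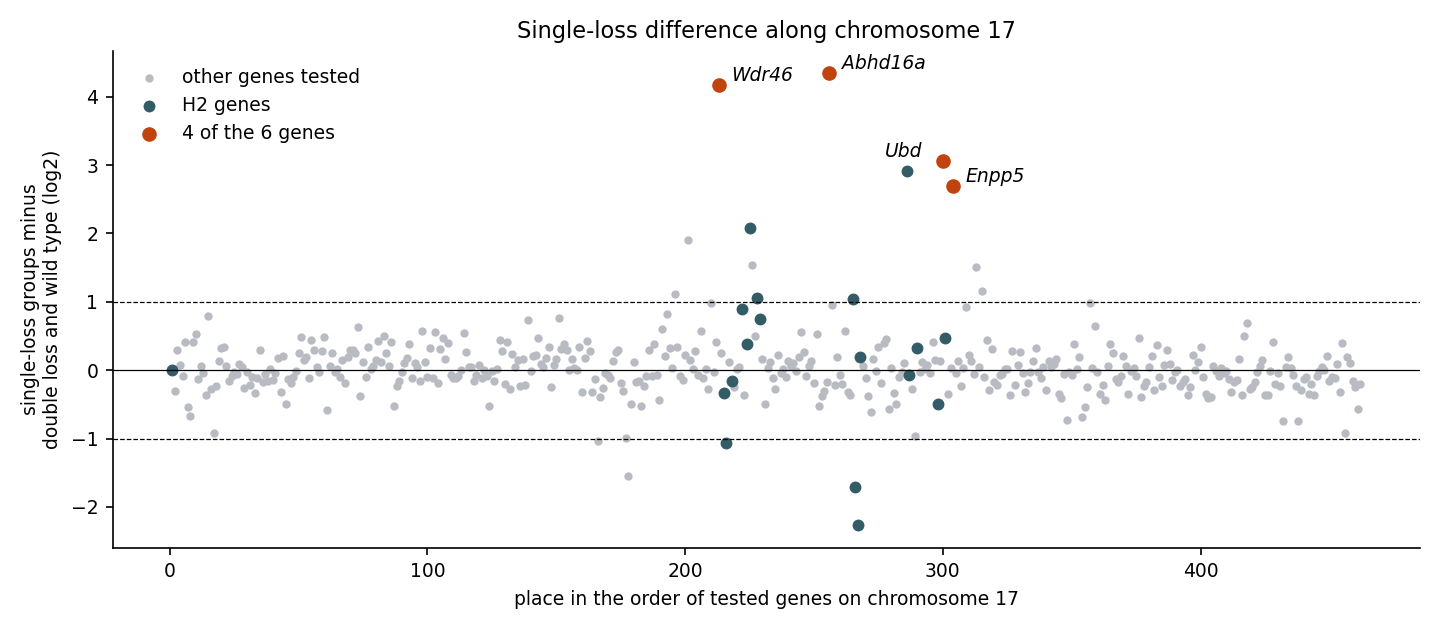
Single-loss difference (log2) of the tested genes of chromosome 17 in RefSeq order, with dashed lines at 2-fold; red points are 4 of the 6 genes, dark blue points H2 genes and grey points other genes. The stretch from Wdr46 to Enpp5 holds H2 genes both above and below the lines; the dark blue point at the far left is H2-Q8, which the table places apart from the others.

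Chromosome 8, which holds none of the 6 genes, also differed between the single-loss groups and the others. Of 489 tested genes there 290 rose and 8 fell in the single-loss difference, with a median of 0.30 on the log2 scale (1.23-fold), against a median of -0.02 over 7730 genes of other chromosomes, with the 6 genes and their neighbours left out. The median was 0.24 for Lin28a loss against wild type and 0.34 for Lin28b loss against double loss, so it was seen within either chip. It was 0.26 under median scaling and 0.30 without the 3 brightest arrays. The part of chromosome 8 in the levels of the 6 genes was not tested. On chromosome 17, 14 of 458 genes changed at least 2-fold (3.06%), among them the 7 H2 genes given above.

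**Figure D5:**
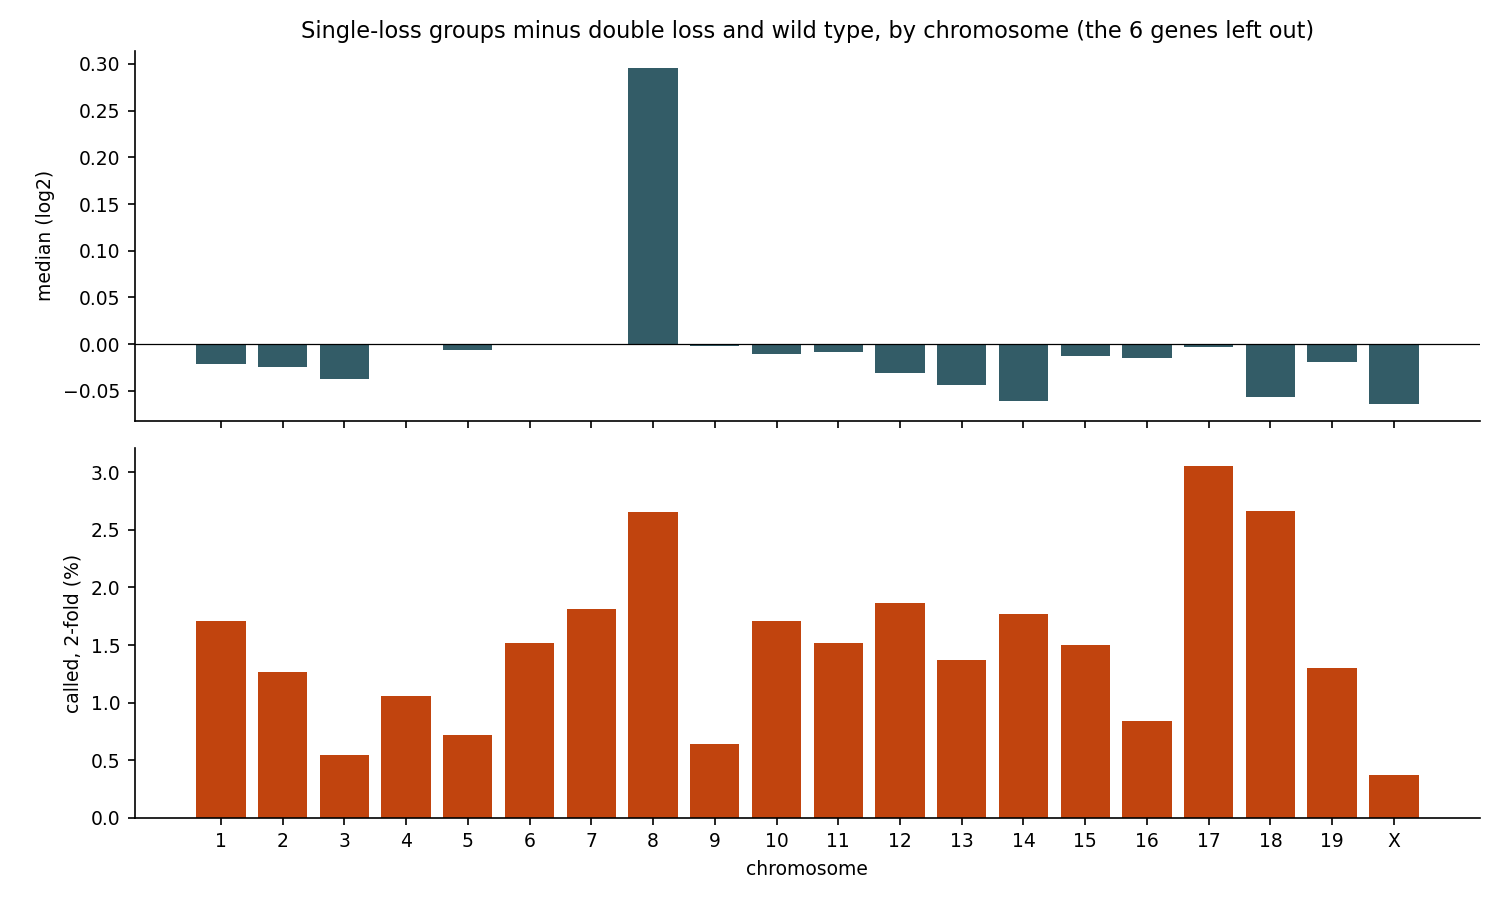
By chromosome, the median single-loss difference of the tested genes (top, log2) and the percent of them that passed the test and changed at least 2-fold (bottom), with the 6 genes left out. Chromosome 8 stands apart in the median, at 0.30, and chromosome 17 has the highest bar below, at 3.06%.

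The 10 genes whose profile over the 12 arrays was most like the mean of the 6 were Cyp7b1 (r = 0.987), H6pd (0.981), Tmem63b (0.968), LOC100047800, A830007N09Rik, Insr, Slc20a2, Tmem40, Flrt1 and Il27ra (0.943). The likeness is in shape, not size: their single-loss differences lay between 0.79 and 1.52 on the log2 scale, against 2.69 to 4.59 for the 6 genes, with signals at background taken as measured. H6pd, a dehydrogenase of the endoplasmic reticulum, had 8.79 ± 0.06 in Lin28a loss and 8.82 ± 0.03 in Lin28b loss, against 8.01 ± 0.10 in double loss and 7.82 ± 0.05 in wild type, and was above background on every array. Insr, the insulin receptor, Slc20a2, a phosphate transporter, and Il27ra, a cytokine receptor chain, lie on chromosome 8. Since these genes were picked by likeness, no test is given.

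Genes that work with the 6 were taken from lists, and tested over all genes. The single-loss difference is the mean of the differences within chip 1 (Lin28a loss minus wild type) and within chip 2 (Lin28b loss minus double loss), and both are given where they ran apart. Of 10 tested genes of NOD1 and NOD2 signalling, Nod1 left out, 1 rose and 3 fell, with a median of -0.10 on the log2 scale beside 0.00 for all genes. Over all genes 37.8% passed in either direction, which is close to the share in this list. Tab1, an adaptor of the kinase Map3k7, rose by 0.61 ± 0.08 (SE, limma, adjusted p = 1.19e-04), and Nfkbia, the inhibitor of NF-kappa-B, fell by 0.59 ± 0.13 (adjusted p = 0.0030). Map3k7 fell by 0.32 ± 0.10 (adjusted p = 0.024), and Rela, a subunit of NF-kappa-B, fell by 0.25 ± 0.08 (adjusted p = 0.021). Tab1 differed by 0.10 within chip 1 and 1.13 within chip 2, and Rela by -0.0049 and -0.49. Nod2 and Ripk2, the kinase through which Nod1 signals, were above background on no array.

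Of 9 tested genes of FAT10 conjugation, the immunoproteasome and the interferon response, Ubd left out, 3 rose and 3 fell (37.8% of all genes passed in either direction). Within chip 1, 3 were higher and 6 lower in Lin28a loss than in wild type (median -0.48 on the log2 scale, 36.7% of all genes passed). Within chip 2, 5 were higher and none lower in Lin28b loss than in double loss (median 0.44, 36.6% of all genes passed). The single-loss counts thus average over opposite shifts. The rises were of Psmb9, given above, Psmb10, another immunoproteasome subunit (0.76 ± 0.12 SE, limma, adjusted p = 3.10e-04), and Tap2, a peptide transporter of antigen presentation (at least 1.22-fold, adjusted p = 0.0047). Psmb9 and Tap2 passed the filter on dim genes through Lin28a loss alone, so their p-values are a description. Irf9, a mediator of interferon signalling, fell by 0.34 ± 0.08 (adjusted p = 0.0041). The other genes that fell, named after their values were seen, were Nub1, which binds FAT10 (-0.28 ± 0.08, adjusted p = 0.014), and Ube2z, which conjugates it (-0.27 ± 0.07, adjusted p = 0.0093). The interferon-induced genes Irf7, Gbp2, Cxcl10, Ifit1, Ifit3 and Isg15 and the light chain gene B2m were above background on no array, and neither was Uba6, the enzyme that activates FAT10.

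The table holds 15 other oligodendrocyte-lineage genes. Among them Olig2, Olig3, Nkx2-2, Mog and Zfp488 were above background on no array. All 3 arrays were above background for 4 of the 15 genes in Lin28a loss and 2 in Lin28b loss, against 1 in double loss and 2 in wild type. Their summed intensity ranged from 388.1 to 431.9 in Lin28a loss and from 378.0 to 397.7 in Lin28b loss, against 338.4 to 352.0 in double loss and 334.8 to 368.6 in wild type. The single-loss sums did not overlap with the others, and their part in the Olig1 signal was not tested. Of the 15 genes 6 were above background on no array in Lin28a loss, 10 in Lin28b loss, 9 in double loss and 10 in wild type. The sums thus hold much background signal and are a description. Of the 4 tested genes 1 rose and none fell in the single-loss difference, with a median of 0.03 on the log2 scale. Over all genes 37.8% passed in either direction. The neural progenitor list had 1 tested gene of 10, Nes, an intermediate filament, which rose by 0.45 ± 0.08 (SE, log2; limma, adjusted p = 0.0012).

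Of 20 tested genes of the small-subunit processome, Wdr46 left out, none rose and 8 fell, with a median of -0.22; over all genes 37.8% passed in either direction, which is close to the share in this list. Pwp2 fell by 0.50 ± 0.08 (SE, limma, adjusted p = 5.01e-04), Nop56 by 0.36 ± 0.08 (adjusted p = 0.0045), Wdr3 by 0.34 ± 0.08 (adjusted p = 0.0037) and Nat10 by 0.30 ± 0.11 (adjusted p = 0.043). Of 14 tested ABHD hydrolases, relatives of Abhd16a, 3 rose and 1 fell, with a median of 0.05, beside 37.8% of all genes passing in either direction. Abhd14b rose by 0.55 ± 0.10 (adjusted p = 7.17e-04), Abhd8 by 0.47 ± 0.06 (adjusted p = 7.01e-05) and Abhd18 at least 1.10-fold (adjusted p = 0.020), and Abhd5 fell by 0.40 ± 0.09 (adjusted p = 0.0039). Abhd8 was higher within both chips (0.59 and 0.34). Abhd14b differed by 0.09 within chip 1 and 1.01 within chip 2, Abhd5 by 0.09 and -0.89, and Abhd18 by -0.26 and 0.77. Abhd18 passed the filter on dim genes through Lin28b loss alone, so its p-value is a description. Of 6 relatives of Enpp5, only Enpp4 was tested, at 6.65 ± 0.22 in Lin28a loss and 6.55 ± 0.10 in Lin28b loss, against 6.90 ± 0.02 in double loss and 6.40 ± 0.12 in wild type, and Enpp1, Enpp2, Enpp3, Enpp6 and Enpp7 were above background on no array.

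Over all genes 37.8% passed the single-loss test in either direction, 36.7% the test within chip 1 and 36.6% that within chip 2. The counts for the marker lists below are to be read beside these shares. Of 14 pluripotency genes 1 rose in the single-loss difference, Klf4 (0.27 ± 0.09 SE, limma, adjusted p = 0.033), and 2 fell, Lin28a (-0.38 ± 0.08, adjusted p = 0.0025) and Utf1 (-0.31 ± 0.09, adjusted p = 0.013). For Lin28a this is the mean of -2.31 within chip 1 and 1.55 within chip 2, where in each case 1 of the groups had lost the gene. Utf1 differed by -0.67 within chip 1 and 0.05 within chip 2, and Klf4 by 0.09 and 0.46. Summed intensity of the pluripotency list ranged from 61629 to 67048 in Lin28a loss, from 68906 to 70178 in Lin28b loss, from 65764 to 71979 in double loss and from 62744 to 67463 in wild type. Of 6 tested trophoblast genes 2 rose, Tfap2c (0.43 ± 0.06) and Eomes (0.34 ± 0.10), and 1 fell, Krt7 (-0.28 ± 0.09). Within chip 1, 5 of the 6 were lower and none higher in Lin28a loss than in wild type, with Tfap2c at -0.23 and Eomes at -0.41, while within chip 2, 3 were higher and none lower in Lin28b loss than in double loss, with 1.09 for either gene. The 10 fibroblast markers, none above background on any array, summed to 291.2 to 365.0 in Lin28a loss and 126.6 to 142.6 in Lin28b loss, against 160.9 to 177.9 in double loss and 151.4 to 168.2 in wild type. Of 4 tested immune markers none rose and Cd3e fell by 0.39 ± 0.07 (adjusted p = 0.0011; -0.79 within chip 1 and 0.01 within chip 2), and the list summed to 8676 to 9516 in Lin28a loss, 7734 to 8135 in Lin28b loss, 7339 to 8572 in double loss and 7947 to 8624 in wild type. Eif2s3y, at background in Lin28a loss and wild type, rose at least 1.33-fold in the single-loss difference (adjusted p = 0.0020), which rests on Lin28b loss against double loss.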

How the data were processed

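Total RNA of 12 samples, extracted with Trizol per the labels, was hybridised to Illumina Mouse WG-6 arrays and read out with GenomeStudio, per the submitters' processing notes. The gene-level table holds raw signal intensities as deposited, not background-subtracted, with detection p-values, bead standard errors and bead numbers per the file headers. Another 48 per-sample columns, named only by number, were not used. Intensities were corrected by normexp with background inferred from the detection p-values of single-probe genes and an offset of 16, converted to log2 and quantile-normalized. Genes with a detection p under 0.01 on all 3 arrays of a group were kept, 1 entry per symbol (10372 passed and 452 further entries were dropped, leaving 9920). limma 3.58.1 (lmFit, eBayes; R 4.3.3) was fitted to all 12 arrays, with Benjamini-Hochberg adjustment over all genes tested and a threshold of 0.05. The fit was tested on simulated data. Precision is limited by the number of arrays. Symbols were updated through RefSeq. Of 30854 genes, 18045 matched an Entrez ID, 2073 a symbol and 2663 a synonym; for 8073 the file's own name was used. RefSeq coordinates were used for gene order and promoters alone. P-values measure the spread between samples, which may be technical.

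The 6 genes, the gene lists and the neighbour windows were chosen with earlier results of these data known. Genes were named by rule: the 6 genes, Lin28a, Lin28b, Eif2s3y and Xist, the 10 genes most alike, up to 12 neighbours changed at least 2-fold, up to 4 called genes per list, up to 6 H2 genes, and the genes on in single loss only. Xist was above background on no array. Some genes of the lists are not reported here. Samples with the same replicate number were not paired: deviations of same-numbered samples correlated at -0.573 to 0.687, over 0.1 in 9 of 18 pairs, and those of other pairs at -0.685 to 0.687, over 0.1 in 12 of 36. Alternatives were median scaling, cyclic loess, another offset, other filters, array weights, a replicate block, only the arrays compared, each array left out, and the 3 brightest arrays left out (chosen after seeing the data).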

Additional observations from a re-analysis of the deposited data

Results flagged for a closer look

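The change with Lin28a loss was set apart by whether Lin28b was intact: double loss minus Lin28b loss was compared with Lin28a loss minus wild type, and the values below are the first difference minus the second on the log2 scale. A negative value means that the change with Lin28a loss was lower in cells lacking Lin28b than in cells holding it, whatever the signals themselves. It equals -2 times the single-loss difference, so it adds no independent evidence. Signals at background enter as measured, so that for genes with a group at background, among them 5 of the 6, the value is no measured size.

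For the 6 genes the choice used this contrast, and it was not tested: the value was -9.17 for Olig1, -6.98 for Nod1, -6.11 for Ubd, -8.68 for Abhd16a, -8.35 for Wdr46 and -5.39 for Enpp5. It was not tested either for genes picked by the same pattern. Among these it was -5.83 for H2-Bl, -3.03 for Tmem63b, -2.58 for Flrt1, -2.18 for Cyp7b1, -1.94 for 1700067K01Rik and -1.91 for Slc20a2. It was -1.81 for Mmp23, -1.78 for H6pd, -1.74 for Tmem40, -1.73 for Insr, -1.68 for Il27ra, -1.62 for LOC100047800 and -1.59 for A830007N09Rik.

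Among neighbours it passed the limma test for H2-Q6 at 4.54, H2-Q5 at 3.41, Cbr3 at 2.71, Npy at 2.29 and H2-K1 at 2.14. It passed with the opposite sign for H2-DMb1 at -4.17, Myo1f at -3.80, Psmb9 at -3.08, 1600014C23Rik at -2.31 and H2-Ab1 at -2.11. All of these neighbours but Cbr3, H2-K1 and 1600014C23Rik passed the filter on dim genes only through groups in which they were high. For them the test is a description.

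Among the listed partner genes it passed at -1.23 for Tab1, 1.17 for Nfkbia, 0.63 for Map3k7, 0.49 for Rela, -1.52 for Psmb10, -1.0 for Tap2 and 0.68 for Irf9. In the processome list it was 1.0 for Pwp2, 0.71 for Nop56, 0.68 for Wdr3 and 0.61 for Nat10, and in the ABHD list -1.10 for Abhd14b, -0.93 for Abhd8, 0.80 for Abhd5 and -0.51 for Abhd18. Tap2 and Abhd18 each passed the filter on dim genes through a single group, so their tests are a description. Among the markers it was 0.76 for Lin28a, 0.62 for Utf1, -0.55 for Klf4, 0.78 for Cd3e, -0.90 for Nes, -0.87 for Tfap2c, -0.67 for Eomes, 0.56 for Krt7 and -0.96 for Eif2s3y.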

How the results depend on the processing

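The untested differences of the 6 genes were recomputed in 288 alternatives: 265 moved by less than 1 SD between replicates, 23 moved by more, and 0 changed sign. The genes were chosen for a wide gap, so the lack of sign changes adds no support. An offset of 50 lowered every one of these differences by more than 1 SD, so their sizes depend on the offset. With it Nod1 differed by 2.52 instead of 3.22 within chip 1, and by 3.18 instead of 3.75 within chip 2. Under median scaling the calls were 1465 for the single-loss difference, 39 for the neighbours, 1401 for Lin28a loss against wild type (3645 in the main setting), 1210 for Lin28b loss against double loss (3632) and 3228 for Lin28a loss against Lin28b loss. With array weights Lin28b loss against double loss had 5744 calls. With the 5 nearest genes on each side 19 neighbours were called, and 43 among genes detected on all 12 arrays, where fewer were tested. Genes on in single loss only numbered 18 at a detection p under 0.05, 134 with at least 2 of 3 arrays on and at most 1 of 3 in the other groups, and 47 without the 3 brightest arrays. Leaving out 1 array at a time gave 3146 to 4191 calls for the single-loss difference, 52 to 72 for the neighbours, 2928 to 3858 for Lin28a loss against wild type, 2758 to 3998 for Lin28b loss against double loss, 4495 to 5631 for Lin28a loss against Lin28b loss and 11 to 24 genes on in single loss only. The Lin28a-loss minus Lin28b-loss difference of Abhd16a, never past the threshold, changed sign under median scaling (0.19) and without Lin28a-loss replicate 2 (0.026); with 1 array left out it ranged from -0.12 to 0.026. That of Ubd did not pass under median scaling (-0.20) or cyclic loess (-0.45), nor that of Wdr46 under median scaling (-0.29); the cause was not tested. With the replicate number as a block the calls were 3863, 64, 3732, 3740 and 5388 in the order above, and replicate numbers did not pair the samples. The authors' normalized tables were not run, since their columns carry only numbers. Signals near background limit Olig1, Ubd, Abhd16a, Wdr46 and Enpp5 in double loss and wild type, where only bounds can be given.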
